A study of Homo sapiens with 4 samples.

Results

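The genes of the NRF2 response, of glutathione and thioredoxin chemistry and of iron handling were examined in 22Rv1 cells, an established human line derived from castration-resistant prostate cancer (CRPC). The list was made of 39 gene symbols, and all 39 were found in the table of 63241 genes by their current symbol. One group of cells received 40 nM JMC45 for 12 h, a small molecule directed at CDK9. The control group received the vehicle DMSO for 12 h. Both groups were grown in RPMI medium with fetal bovine serum, and there were 2 libraries per group. Whether the libraries stem from separate cultures is not in the labels. The p-values then reflect only how far the 4 libraries scatter, which may be technical. The series title calls the compound a CDK9 degrader named Compound 45 or D45, which was taken to be JMC45. The comparison asked which of these transcripts had other levels after exposure to a compound directed at CDK9, which helps paused RNA polymerase II enter elongation.

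NRF2, encoded by NFE2L2, is the transcription factor that switches on antioxidant genes. KEAP1 holds it low by presenting it to the CUL3 ubiquitin ligase, and NRF2 binds antioxidant response elements together with a small MAF protein. Its targets make glutathione, keep thioredoxin reduced, break down heme and store iron in ferritin. Peroxiredoxins and glutathione peroxidases remove peroxides with electrons that come in the end from NADPH. Cellular iron is set by a separate circuit, in which iron regulatory proteins bind hairpins called iron-responsive elements in the messages for ferritin, ferroportin and the transferrin receptor.

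The deposited values were TPM, in which each transcript is scaled by its length and then by the total of its library. TPM thus compares shares of libraries, and sequencing depth is unknown. Differences were tested with limma on log2(TPM + 1), a scale on which differences of low genes come out smaller than their fold changes. Genes entered the test at a mean TPM of at least 1, which all 39 reached. The words rose and fell are kept for genes with a Benjamini-Hochberg adjusted p below 0.05 over all 14018 genes tested. Pearson correlations of log2 values across genes were 0.984 within vehicle, 0.985 within JMC45 and 0.892 to 0.9 across the groups. The median difference of all genes was -1.10 (log2). It depended on the scaling: it was -0.02 when each library was divided by 1 median-of-ratios size factor and 0.02 under quantile normalization. It was -1.47 when libraries were scaled to an equal mitochondrial total, the summed TPM of mitochondrially encoded genes. Most directions below are therefore given with their value or call under size factors. In bulk RNA, fewer cells of a type and less RNA per cell cannot be told apart.

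CDK9 mRNA was at 20.15 and 22.45 TPM in vehicle and at 4.93 and 3.78 TPM in JMC45, but a degrader acts on protein, so this RNA is no check of the labels. All 8 prostate luminal markers reached a mean of 1 TPM, with KRT8 the highest at 183. Their summed level was 857 and 879 TPM in vehicle and 321 and 319 in JMC45. On TPM 7 of the 8 fell, near the 80.7% of all genes tested. The 4 endothelial markers summed to at most 0.01 TPM with 2 of them at 0 in all libraries, and the 6 leukocyte markers summed to 0.87 to 1.03 TPM. Of 4 basal and 6 fibroblast markers, 1 and 2 reached a mean of 1 TPM, with sums of 0.95 to 1.69 and 6.40 to 7.76 TPM, and none of them passed the test. The part of these marker differences in the results below was not tested.

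NFE2L2, its inhibitor KEAP1 and the glutathione-making GCLC fell on TPM, while GPX4, thioredoxin, 4 peroxiredoxins and both ferritin chains rose. Of the 39 genes, 20 fell and 9 rose, whereas 80.7% of all genes tested fell and 4.25% rose. The groups did not overlap in TPM for 22 genes that were lower and 10 that were higher in JMC45, against 85.7% and 6.28% of all genes tested. The median of the 39 genes was -0.28, which is 0.82 above that of all genes. That gap was 0.25 under quantile normalization and 0.02 with no filter on low values, and 5 of the 39 rose without the intensity trend of the fit. On TPM 84.9% of all genes passed in either direction. Under size factors 7 of the 39 fell and 26 rose, where 35.5% of all genes fell and 34.9% rose (70.4% in either direction). Under quantile normalization 10 fell and 22 rose, where 32.8% and 33.6% of all genes did (66.5% in either direction). At an equal mitochondrial total 0 of the 39 rose, where 1.29% of all genes did and 90.5% fell (91.8% in either direction). The same 6 genes fell on TPM and under these 3 scalings, and also on TPM without the mitochondrially encoded genes: NFE2L2, KEAP1, GCLC, HMOX2, SLC40A1 and IREB2. All 9 that rose on TPM also rose under size factors and under quantile normalization: GPX4, TXN, PRDX2, PRDX3, PRDX4, PRDX5, FTH1, FTL and ACO1. Of all 14018 genes tested, 3966 fell and 539 rose on TPM, under size factors and under quantile normalization alike. In these same settings 6 of the 39 fell and 9 rose. The other scalings were not part of this count over all genes. Falling in each of the settings counted was thus not particular to the 6 genes.

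**Figure D1:**
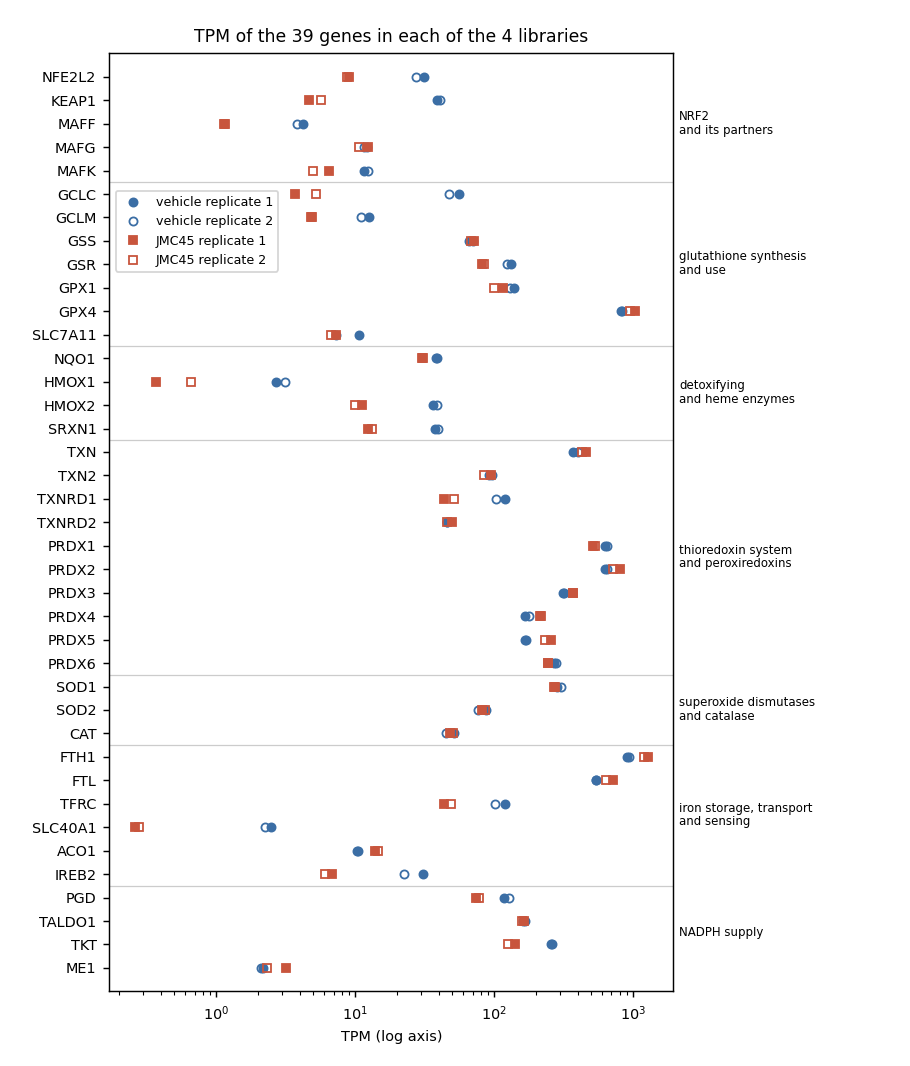
TPM of each of the 39 genes on a log axis, ordered by role, with circles for the vehicle libraries and squares for the JMC45 libraries. The squares of KEAP1, GCLC, HMOX1, SLC40A1 and IREB2 lie far to the left of the circles, while those of FTH1, FTL, PRDX5 and GPX4 lie to the right of them.

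NFE2L2 and its inhibitor KEAP1 both had lower values in JMC45, KEAP1 by more. NFE2L2 was at 31.2 and 27.3 TPM in vehicle and at 9.09 and 8.72 TPM in JMC45. It fell by 1.61 on the log2 scale (SE 0.10, limma adjusted p = 3e-05), and its value under size factors was -0.34. KEAP1 went from 39.1 and 40.7 TPM to 4.67 and 5.73 TPM, a 7.67-fold lower mean. Its log2 difference was -2.73 (SE 0.11, limma adjusted p = 1.15e-05), and -1.49 under size factors. Only 3.32% of all genes tested had a lower difference than KEAP1, against 28.5% for NFE2L2. In both genes each JMC45 library lay below each vehicle library.

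The pairs of genes whose ratios are given here and below were chosen after the values were seen. The ratio of KEAP1 to NFE2L2 within a library does not depend on a factor per library. It was 1.25 and 1.49 in vehicle and 0.51 and 0.66 in JMC45, so NFE2L2 had the higher TPM of the pair only in the treated libraries. The log2 ratio differed by -1.23, more than its range of 0.25 within vehicle and 0.36 within JMC45. Among the small MAF proteins, the DNA-binding partners of NRF2, MAFF fell by 1.23 and MAFK fell by 0.96. MAFG was at 12.2 and 11.7 TPM in vehicle and 12.4 and 10.7 TPM in JMC45, and its groups overlapped. Under size factors MAFG rose by 1.20, MAFK was at 0.25 and MAFF at -0.32, neither of them past the threshold. Summed over the 5 regulators, TPM was 98.4 and 96.0 in vehicle and 33.8 and 31.3 in JMC45 (two-sided exact permutation p = 0.33, the smallest that 2 libraries against 2 allow).

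Antioxidant response elements were looked for in the promoters because NRF2 acts through them. The letters TGACNNNGC were searched on both strands of the 250 bases before each start in the RefSeq table of build GRCh38.p14. Of the 39 genes, 29 had a window, and FTH1, GSR, GSS, HMOX1, MAFK, PRDX1, PRDX6, SLC7A11, SOD1 and TXN2 did not. A match was present for 6 of the 29 genes (20.7%), against 13.2% of all 27305 genes with a window. The 29 genes had 43 windows and all 27305 genes had 35116. A gene with more windows has more places for a match, so these shares per gene are not fully alike. Counted per window, 10.9% of all 35116 windows had a match, which cannot be set against a share per gene. The matches are in capitals below with 20 bases on each side, 5′ to 3′ on the strand of the gene, and a match in reverse orientation reads GCNNNGTCA. The motif overlaps TGACTCA, the AP-1 motif.
KEAP1, chr19:10502774-10502845, minus strand, 2 matches that begin 54 and 31 bases before the start: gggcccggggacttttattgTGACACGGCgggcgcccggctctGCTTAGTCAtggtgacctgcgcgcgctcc
GCLM, chr1:93909436-93909484, minus strand: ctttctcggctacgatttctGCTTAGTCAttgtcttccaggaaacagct
TXNRD1, upstream start, chr12:104215660-104215708, plus strand: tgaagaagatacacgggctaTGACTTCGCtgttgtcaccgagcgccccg
TXNRD1, downstream start, chr12:104286910-104286958, plus strand: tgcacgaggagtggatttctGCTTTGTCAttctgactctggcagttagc
MAFF, chr22:38201852-38201900, plus strand: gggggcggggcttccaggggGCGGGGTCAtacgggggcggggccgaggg
PGD, chr1:10398843-10398891, plus strand: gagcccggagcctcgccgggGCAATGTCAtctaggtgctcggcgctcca
ME1, chr6:83431160-83431208, minus strand: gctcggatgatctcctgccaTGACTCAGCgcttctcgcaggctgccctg
Of these 6 genes KEAP1, GCLM, TXNRD1, MAFF and PGD fell on TPM, a share near the 80.7% of all genes tested, and ME1 did not pass the test. Under size factors KEAP1 fell, PGD and ME1 rose and the other 3 did not pass. The match is a description of the letters in the window and not evidence of a bound site. No match in a window says only that these letters are not there.

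Glutathione synthesis and use divided by gene. The catalytic subunit of glutamate-cysteine ligase, GCLC, which makes the rate-limiting step of glutathione synthesis, had the largest decrease of the 39 genes on TPM. It was at 55.5 and 47.4 TPM in vehicle and at 3.68 and 5.20 TPM in JMC45, an 11.6-fold lower mean. Its log2 difference was -3.28 (SE 0.16, limma adjusted p = 1.48e-05), and 0.663% of all genes tested had a lower one. Under size factors GCLC fell by 2.05. The modifier subunit GCLM was at 12.57 and 11.00 TPM in vehicle and 4.91 and 4.83 TPM in JMC45 and fell by 1.12, close to the median gene, and its value under size factors was 0.07. The ratio of GCLC to GCLM was 4.42 and 4.31 in vehicle and 0.75 and 1.08 in JMC45. The subunits, at unequal levels in vehicle, thus stood at similar TPM in the treated cells. The log2 ratio differed by -2.28, against a range of 0.03 within vehicle and 0.52 within JMC45.

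Glutathione synthetase (GSS), which completes the tripeptide, was at 65.55 and 70.45 TPM in vehicle and 71.8 and 68.3 TPM in JMC45. Its groups overlapped on TPM, with a log2 difference of 0.04, and it rose by 1.38 under size factors and by 0.82 under quantile normalization. Glutathione reductase (GSR), which regenerates the reduced form, went from 131.8 and 124.2 TPM to 81.6 and 84.9 TPM and fell by 0.61, with 0.73 under size factors. The cystine importer SLC7A11, which supplies cysteine, was at 10.6 and 7.34 TPM in vehicle and 7.29 and 6.76 TPM in JMC45. Its difference of -0.29 did not pass (limma adjusted p = 0.164), but it did without vehicle replicate 2 (-0.53, limma adjusted p = 0.0233), and it rose by 0.90 under size factors. The glutathione peroxidases moved apart. GPX4, which reduces lipid peroxides in membranes, was at 815 and 835 TPM in vehicle and 1041 and 944 TPM in JMC45 and rose by 0.26 (limma adjusted p = 0.0108), with -0.20 at an equal mitochondrial total. GPX1, the general cytosolic enzyme, was at 138.8 and 131.0 TPM and then 116.4 and 100.1 TPM and fell by 0.32 (limma adjusted p = 0.0149). Under size factors both rose, by 1.62 and 1.02, and the difference in their log2 ratio of 0.59 became -0.02 under quantile normalization. The GPX4 call was lost without vehicle replicate 1, vehicle replicate 2 or JMC45 replicate 1 (limma adjusted p = 0.0652, 0.0522 and 0.0607). The GPX1 call was lost without vehicle replicate 1, vehicle replicate 2 or JMC45 replicate 2 (limma adjusted p = 0.0904, 0.0556 and 0.0654). Summed over the 7 genes, TPM was 1230 and 1227 in vehicle and 1327 and 1214 in JMC45, and the groups overlapped (two-sided exact permutation p = 1.0).

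**Figure D2:**
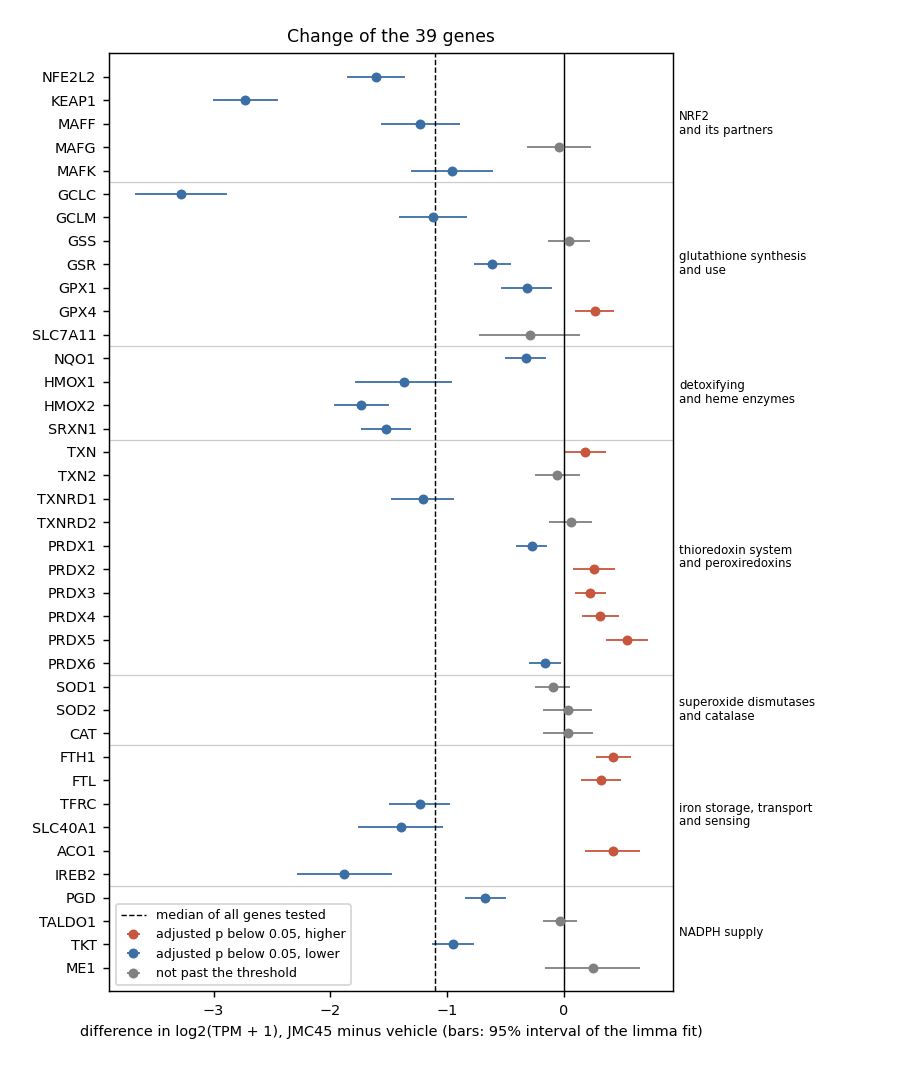
Difference in log2(TPM + 1) between JMC45 and vehicle for each of the 39 genes, with the 95% interval of the limma fit, ordered by role. The dashed line marks the median of all genes tested at -1.10. GCLC and KEAP1 lie farthest to the left and PRDX5 farthest to the right. Scaling by size factors shifts every point to the right, by 0.61 to 1.35 in this list, which turns 16 of the differences from negative to positive.

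The 4 detoxifying and heme enzymes fell on TPM, as did 80.7% of all genes tested. NQO1, a quinone reductase often used as a readout of NRF2, was at 38.4 and 38.8 TPM in vehicle and 30.1 and 31.0 TPM in JMC45. It fell by 0.33 (SE 0.07, limma adjusted p = 0.00551), less than 81.5% of all genes tested, and rose by 0.99 under size factors. The inducible heme oxygenase HMOX1 was low throughout, with 2.70 and 3.12 TPM in vehicle and 0.37 and 0.66 TPM in JMC45, and it fell by 1.37. HMOX1 reached the mean of 1 TPM only through its vehicle libraries, and it passed the test with no filter on low values too (limma adjusted p = 0.00571). The constitutive enzyme HMOX2 went from 36.5 and 38.55 TPM to 11.2 and 9.99 TPM and fell by 1.73. Sulfiredoxin (SRXN1), which repairs overoxidised peroxiredoxins, went from 37.9 and 39.7 TPM to 12.4 and 13.3 TPM and fell by 1.52. Under size factors HMOX1 and HMOX2 fell by 0.64 and 0.45, while SRXN1 was at -0.23 and did not pass. The HMOX1 call was lost under quantile normalization (-0.33, limma adjusted p = 0.159). In TPM summed over the 4 enzymes, vehicle had 115.5 and 120.2 and JMC45 had 54.0 and 55.0, a log2 ratio of -1.11 that became 0.24 under size factors (two-sided exact permutation p = 0.33).

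The thioredoxin system held 5 of the 9 genes that rose, and its main reductase fell. Thioredoxin (TXN), the small protein that hands electrons to peroxiredoxins, was at 371 and 405 TPM in vehicle and 456 and 426 TPM in JMC45. TXN rose by 0.18 (limma adjusted p = 0.0475), a call lost without vehicle replicate 1, JMC45 replicate 1 or JMC45 replicate 2 (limma adjusted p = 0.214, 0.204 and 0.0556). TXNRD1, the cytosolic selenoenzyme that reduces thioredoxin, went from 119.97 and 102.85 TPM to 43.7 and 51.4 TPM and fell by 1.21 (SE 0.11, limma adjusted p = 0.000116). Its value was 0.12 under size factors, and under quantile normalization it fell by 0.48 (limma adjusted p = 0.013). The mitochondrial partners TXN2 (91.9 and 96.35 TPM, then 95.7 and 85.3 TPM) and TXNRD2 (45.9 and 46.2 TPM, then 50.15 and 46.0 TPM) overlapped between groups. Neither passed the test on TPM, with differences of -0.06 and 0.06, and both rose under size factors, by 1.28 and 1.38. The ratio of TXNRD1 to TXNRD2 was 2.61 and 2.23 in vehicle and 0.87 and 1.12 in JMC45. This difference in the log2 ratio, -1.29, was larger than the range of 0.23 within vehicle and 0.36 within JMC45.

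Peroxiredoxins, which remove hydrogen peroxide, were among the most abundant of the 39 transcripts. PRDX5, found in mitochondria, peroxisomes and cytosol, had the largest increase of the list, from 165.8 and 171.1 TPM to 258.9 and 232.4 TPM. It rose by 0.54 (SE 0.07, limma adjusted p = 0.000593), more than 97.5% of all genes tested, and was at 0.08 at an equal mitochondrial total. PRDX4 of the endoplasmic reticulum went from 165.7 and 179.9 TPM to 216.0 and 213.0 TPM and rose by 0.31. The mitochondrial PRDX3 went from 313 and 319 TPM to 372 and 368 TPM and rose by 0.23. PRDX2, a cytosolic enzyme, was at 631 and 647 TPM and then at 809 and 718 TPM and rose by 0.25, a call lost without vehicle replicate 1, vehicle replicate 2 or JMC45 replicate 1 (limma adjusted p = 0.0924, 0.0735 and 0.0875). Those 3 differences were -0.15, -0.24 and -0.21 at an equal mitochondrial total.

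PRDX1, the other main cytosolic peroxiredoxin, went the other way on TPM, from 627 and 648 to 519 and 532, and fell by 0.28 (limma adjusted p = 0.00358). PRDX6, which uses glutathione, was at 269 and 277 TPM in vehicle and 243 and 245 TPM in JMC45 and fell by 0.16 (limma adjusted p = 0.032), a call lost without any 1 of the 4 libraries (limma adjusted p = 0.0596 to 0.104). Under size factors all 6 peroxiredoxins rose, by 1.07 for PRDX1 to 1.89 for PRDX5. The ratio of PRDX5 to PRDX1 was 0.26 in both vehicle libraries and 0.50 and 0.44 in JMC45, a difference of 0.82 in the log2 ratio. The 10 genes of the thioredoxin system summed to 2801 and 2893 TPM in vehicle and 3064 and 2916 TPM in JMC45 (two-sided exact permutation p = 0.33).

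Superoxide dismutases and catalase did not pass the test. SOD1, the cytosolic enzyme, was at 283 and 301 TPM in vehicle and 276 and 269 TPM in JMC45, with a difference of -0.10 (95% interval of -0.25 to 0.05) and groups that did not overlap. The mitochondrial SOD2 was at 87.1 and 76.3 TPM and then 81.3 and 85.4 TPM, and catalase (CAT) at 51.65 and 45.3 TPM and then 48.4 and 50.7 TPM. The groups of SOD2 and CAT overlapped, and the 95% intervals of their differences were -0.18 to 0.24 and -0.18 to 0.25. Relative to the median gene the 3 stood 1.00 to 1.14 higher, and under size factors all 3 rose.

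**Figure D3:**
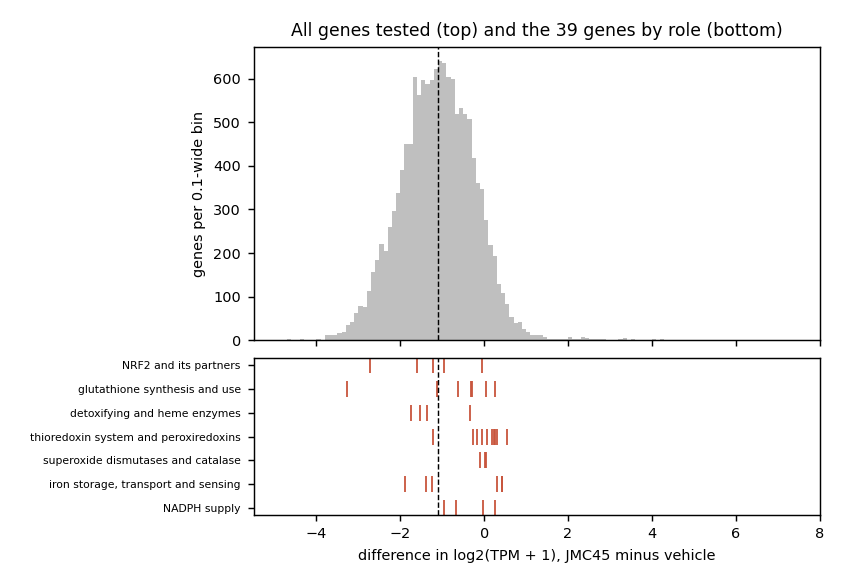
The histogram shows the difference in log2(TPM + 1), JMC45 minus vehicle, for the 14018 genes tested, with the dashed line at their median of -1.10. The ticks under it mark the 39 genes by role. Ticks of the superoxide dismutases and catalase and most ticks of the thioredoxin system lie right of the median, and GCLC and KEAP1 lie in the left tail.

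The iron genes moved in opposite directions, 3 up and 3 down on TPM. FTH1, the ferritin heavy chain, which oxidises iron for storage, was at 905 and 942 TPM in vehicle and 1277 and 1200.1 TPM in JMC45. It rose by 0.42 (SE 0.06, limma adjusted p = 0.00087). FTL, the light chain, went from 541 and 544 TPM to 713 and 641 TPM and rose by 0.32 (SE 0.07, limma adjusted p = 0.00549). The transferrin receptor TFRC, which brings iron into the cell, went from 120.7 and 101.1 TPM to 43.85 and 49.0 TPM and fell by 1.23 (SE 0.11, limma adjusted p = 9.19e-05). Ferroportin (SLC40A1), the only known iron exporter, was low, with 2.47 and 2.23 TPM in vehicle and 0.26 and 0.28 TPM in JMC45, and fell by 1.40. SLC40A1 reached the mean of 1 TPM only through its vehicle libraries and was not tested without vehicle replicate 1. With no filter on low values it passed (limma adjusted p = 0.00276). In FTH1, FTL, TFRC and SLC40A1 the groups did not overlap. Under size factors FTH1 and FTL rose by 1.77 and 1.67, TFRC was at 0.10 and SLC40A1 fell by 0.79. Under quantile normalization TFRC fell by 0.50 (limma adjusted p = 0.0117). At an equal mitochondrial total FTH1 and FTL were at -0.04 and -0.14. The 6 iron genes summed to 1611 and 1622 TPM in vehicle and 2055 and 1911 TPM in JMC45 (two-sided exact permutation p = 0.33).

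Reads of FTH1 and FTL may be shared with their processed copies. The 10 FTH1 pseudogenes with any signal summed to 2.48 and 1.36 TPM in vehicle and 4.20 and 3.37 TPM in JMC45, which was 0.208% and 0.306% of the FTH1 value. The 2 FTL pseudogenes summed to 0.70 and 1.74 TPM and then 9.25 and 6.64 TPM, 0.225% and 1.17% of FTL. Copies of GPX1 came to 1.70% and 2.58% of its value and the single copy of TXN to 0.232% and 0.228%. The ratio of TFRC to FTH1 was 0.13 and 0.11 in vehicle and 0.03 and 0.04 in JMC45, a log2 difference of -1.67.

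The transcripts of the iron regulatory proteins that bind the hairpins of these messages changed against each other on TPM. The proteins themselves were not measured. ACO1 encodes iron regulatory protein 1, which is an aconitase when it carries an iron-sulfur cluster. It was at 10.4 and 10.5 TPM in vehicle and 13.8 and 14.7 TPM in JMC45 and rose by 0.42 (SE 0.10, limma adjusted p = 0.00696), a call lost without JMC45 replicate 2 (limma adjusted p = 0.0544). IREB2 encodes iron regulatory protein 2, which is removed by a ubiquitin ligase when iron is ample. It was at 30.9 and 22.4 TPM in vehicle and 6.80 and 6.04 TPM in JMC45 and fell by 1.88 (SE 0.17, limma adjusted p = 9.79e-05). Under size factors ACO1 rose by 1.66 and IREB2 fell by 0.64, and at an equal mitochondrial total ACO1 was at -0.01. The ratio of ACO1 to IREB2 was 0.34 and 0.47 in vehicle and 2.03 and 2.43 in JMC45. IREB2 thus had the higher TPM in the vehicle libraries and ACO1 in the treated ones. The difference of 2.49 in the log2 ratio was the largest of the 10 ratios computed.

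The hairpins were located in the GENCODE 29 representative transcripts to show which ends of these messages carry them. The search asked for the letters CNNNNNCAGTGN on the transcript strand, in which the 5 bases before the loop CAGTGN pair with the 5 after it (G with U allowed). Such a hairpin was present in the 5′ UTR of 0.107% and in the 3′ UTR of 0.519% of 19666 transcripts. Each window below has 30 bases, 5′ to 3′ on the transcript strand in DNA letters, with the loop in capitals and coordinates on GRCh38.
FTH1, 5′ UTR, chr11:61967573-61967602: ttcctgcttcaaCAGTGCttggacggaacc
FTL, 5′ UTR, chr19:48965335-48965364: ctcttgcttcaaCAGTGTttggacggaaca
SLC40A1, 5′ UTR, chr2:189580660-189580689: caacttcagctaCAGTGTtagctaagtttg
TFRC, 3′ UTR, chr3:196050978-196051007: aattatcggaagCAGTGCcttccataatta
TFRC, 3′ UTR, chr3:196050574-196050603: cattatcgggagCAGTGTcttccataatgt
TFRC, 3′ UTR, chr3:196050509-196050538: ctgtatcggagaCAGTGAtctccatatgtt
TFRC, 3′ UTR, chr3:196050462-196050491: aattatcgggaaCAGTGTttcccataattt
FTH1 and FTL, which rose, and SLC40A1, which fell, all had the hairpin in the 5′ UTR, where a bound regulatory protein is known to block translation. TFRC, which fell on TPM, had 4 matches to the search in the 3′ UTR, where binding is known to protect the message from decay. Hairpins with imperfect pairing were not searched for. None of the other genes among the 38 with a GENCODE 29 transcript had a match; SOD2 had no entry. RNA levels do not show translation, and binding of these hairpins was not measured.

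**Figure D4:**
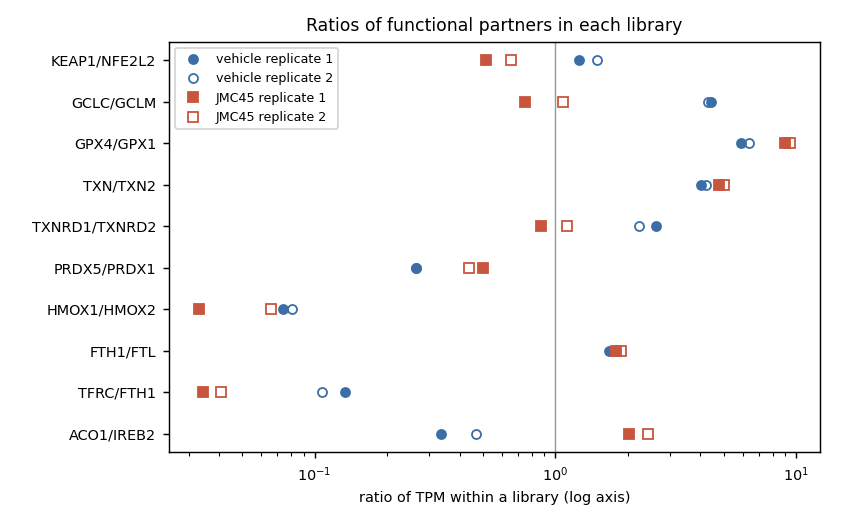
Ratio of TPM between functional partners within each library on a log axis, with circles for vehicle and squares for JMC45. The ratio of GCLC to GCLM goes from 4.42 and 4.31 to 0.75 and 1.08 and that of ACO1 to IREB2 from 0.34 and 0.47 to 2.03 and 2.43.

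Ratios within a library were taken for 10 pairs of partners, chosen after the values were seen. In all 10 pairs the JMC45 libraries lay on 1 side of the vehicle libraries. For single genes, TPM was lower without overlap in 85.7% and higher in 6.28% of all genes tested, and other pairs were not examined. Each two-sided exact permutation test gave p = 0.33, the smallest possible here, before and after adjustment over the 10 pairs. Of the ratios not given above, TXN to TXN2 went from 4.04 and 4.20 to 4.76 and 4.99, and HMOX1 to HMOX2 from 0.07 and 0.08 to 0.03 and 0.07. The JMC45 libraries differed from each other by 1.00 in the log2 ratio of HMOX1 to HMOX2, more than the difference between the groups. The ratio of FTH1 to FTL went from 1.67 and 1.73 to 1.79 and 1.87. The log2 differences of these 3 ratios, 0.24, -0.73 and 0.10, turned sign under quantile normalization (-0.16, 0.20 and -0.13).

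The 4 genes listed under NADPH supply stood above the median gene on TPM. Transketolase (TKT), of the non-oxidative pentose phosphate pathway, went from 257 and 262 TPM to 142.0 and 126.6 TPM and fell by 0.95. Phosphogluconate dehydrogenase (PGD), which yields NADPH, went from 117.5 and 127.1 TPM to 74.6 and 78.0 TPM and fell by 0.67. Transaldolase (TALDO1) was at 167.8 and 161.5 TPM and then 163.9 and 158.0 TPM, with overlapping groups and a difference of -0.03. Malic enzyme (ME1) was low, at 2.18 and 2.12 TPM in vehicle and 3.19 and 2.34 TPM in JMC45, and its difference of 0.25 did not pass (limma adjusted p = 0.202). Under size factors all 4 rose, by 0.40 for TKT to 1.31 for TALDO1, but under quantile normalization TKT fell by 0.54 (limma adjusted p = 0.0008) and PGD was at -0.06. The 4 genes summed to 545 and 553 TPM in vehicle and 384 and 365 TPM in JMC45 (two-sided exact permutation p = 0.33).

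The 39 transcripts together summed to 6822 and 6933 TPM in vehicle and 7323 and 6897 TPM in JMC45 (two-sided exact permutation p = 0.67). Within the list, shorter and more abundant transcripts tended to have the higher differences on TPM. Over the 38 genes with a GENCODE 29 transcript, the log2 difference had a Spearman correlation of -0.54 (Pearson -0.29) with transcript length, against -0.14 over 11517 protein-coding genes tested. GPX4 (919 bases), TXN (869), FTL (878) and PRDX5 (893) rose, while TFRC (5111) and IREB2 (6354) fell. Against this order ACO1 (7466) rose, and PRDX1 (1021) and GPX1 (1151) fell. With the vehicle level the Spearman correlation was 0.49 in the list and 0.02 over those genes. These points share the 4 libraries, the vehicle level enters the difference itself, and genes are not independent replicates. The number of exons showed a Spearman correlation of -0.04 in the list. All these correlations were taken on TPM only. Under quantile normalization the abundant GPX4 and FTH1 were at 0.19 and 0.30. Of scarcer genes, ACO1 and ME1 were at 1.69 and 1.43 there, and KEAP1 and GCLC at -1.50 and -2.09.

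Further genes of the same pathways, 152 in 4 lists, were compared with the 39. TRIM16L had more than 1 identifier and was left out, and 132 of the other 151 reached the mean of 1 TPM. Of these 132, 106 fell (80.3%) and 6 rose (4.55%), near the 80.7% and 4.25% of all genes, and the median was -0.84. Under size factors 28 fell and 71 rose, where 35.5% of all genes fell and 34.9% rose.

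Of 29 tested regulators and further targets of NRF2, 26 fell (89.7%, against 80.7% of all genes) and 0 rose on TPM, while 5 fell and 11 rose under size factors (35.5% and 34.9% of all genes). The median of the list, -1.07, was near that of all genes, -1.10. The carbonyl reductase CBR3 went from 9.81 and 10.9 TPM to 1.06 and 0.54 TPM and fell by 2.67. CUL3, the ligase scaffold that KEAP1 serves, went from 72.0 and 67.8 TPM to 16.1 and 16.1 TPM and fell by 2.05, CBR1 fell by 1.96, and BACH1, a repressor of HMOX1, fell by 1.85. These 4 also fell under size factors, by 0.69 to 1.74. CBR3 and BACH1 had means of 0.80 and 0.565 TPM in JMC45 and reached the mean of 1 TPM only through their vehicle libraries.

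Of 29 tested glutathione transferases, peroxidases and related genes, 19 fell (65.5%, against 80.7% of all genes) and 3 rose (10.3%, against 4.25%). The median was -0.65, and under size factors 7 fell and 20 rose, where 35.5% and 34.9% of all genes did. The mitochondrial glutaredoxin GLRX2 fell by 2.51, CHAC2, which degrades glutathione, by 1.81, the cytosolic glutaredoxin GLRX by 1.77 and GPX7 by 1.77. Each of them also fell under size factors, by 0.75 to 1.22. GPX7 had a mean of 0.635 TPM in JMC45 and reached the mean of 1 TPM only through its vehicle libraries. MGST3, a membrane glutathione transferase, went from 54.8 and 55.7 TPM to 82.3 and 72.4 TPM and rose by 0.48, and GGT7 rose by 0.54. MGST3 and GGT7 rose by 1.81 and 1.76 under size factors and were at 0.02 and 0.12 at an equal mitochondrial total. The third, GLO1, rose by 0.17 on TPM and was at -0.30 at an equal mitochondrial total, and it was named after its value was seen. With JMC45 replicate 1 left out 1 of the list rose. GSTP1, a glutathione transferase, was listed at 0 in all 4 libraries.

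Among 34 tested genes of the thioredoxin fold, sulfoxide repair and selenocysteine insertion, 25 fell (73.5%, against 80.7% of all genes) and 3 rose (8.82%, against 4.25%). The median was -0.63, and under size factors 6 fell and 20 rose, where 35.5% and 34.9% of all genes did. The methionine sulfoxide reductase MSRB1 went from 19.45 and 23.7 TPM to 1.09 and 1.26 TPM and fell by 3.37. SEPHS2, which makes the selenium donor for selenoproteins such as TXNRD1 and GPX4, went from 59.5 and 62.5 TPM to 6.07 and 5.24 TPM and fell by 3.22. The ribonucleotide reductase subunit RRM2, which uses thioredoxin electrons, fell by 2.88 and TXNDC11 by 2.59. MSRB1, SEPHS2, RRM2 and TXNDC11 also fell under size factors, by 1.49 to 2.33. SELENOM and TXNDC5, proteins of the endoplasmic reticulum, rose by 0.51 and 0.37. They rose by 1.85 and 1.70 under size factors, and their values were 0.05 and -0.09 at an equal mitochondrial total. The third that rose, SELENOW (0.29, and -0.17 at an equal mitochondrial total), was named after its value was seen.

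Of 40 tested genes of iron uptake, ferritin turnover, iron-sulfur and heme assembly, 36 fell and 0 rose, where 80.7% and 4.25% of all genes did, and the median was -0.96. Under size factors 10 fell and 20 rose, where 35.5% and 34.9% of all genes did. ISCA2, a mitochondrial iron-sulfur assembly factor, went from 26.1 and 26.8 TPM to 2.17 and 1.55 TPM and fell by 3.27. Of the cytosolic assembly factors, CIAO3 fell by 3.07 and NUBP1 fell by 2.51. These 3 also fell under size factors, by 1.30 to 2.16.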

How the data were processed

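RNA of 22Rv1 cells was measured by poly(A)-selected RNA sequencing with a stranded kit, per the labels' protocols. The authors deposited 1 table of TPM with Ensembl identifiers, per the file headers. Tools named in the submitters' processing notes are HISAT2, StringTie and fastp. Genome build, annotation and strand setting were not given in the sources used here. Reads of overlapping or antisense genes can therefore not be told apart. Of the table, 50 lines without values were left out, and 62666 of 63241 identifiers were matched to a symbol. Columns headed CTL were taken as vehicle, with the replicate number in their name. Depth is unknown, so no counting intervals are given.

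For 14018 genes whose TPM averaged 1 or more, log2(TPM + 1) was fitted with limma 3.58.1 in R 4.3.3, with an intensity trend, two-sided and without a replicate block. The Benjamini-Hochberg adjustment covered every gene tested, and calls were made at 0.05. The fit was tested on simulated data in which a small share of genes was changed, in both directions. These data held no shift of most genes, so the test does not bear on the choice of scaling. Summaries and tests of single values were made in Python 3.11.15 (scipy 1.17.1, numpy 2.4.6, pandas 2.3.3, matplotlib 3.10.9). Results were recomputed with no filter, a pseudocount of 0.1, a minimum mean of 5 TPM, quantile normalization, median-of-ratios size factors, 2 treatments of the mitochondrially encoded genes, no intensity trend, a replicate block and each library left out. Members and lists were chosen with earlier results of these data known. Every member was named, with up to 4 of the largest changes in each further list and up to 2 against its direction. A gene that this rule names in the iron list is not reported here.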

Additional observations from a re-analysis of the deposited data

How the results depend on the processing

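TPM holds only shares and gives no depth, and 2 libraries per group leave single-value tests no p below 0.33. Many directions depend on the scaling. Median-of-ratios size factors gave 4888 genes that rose and 4981 that fell (596 and 11311 on TPM), quantile normalization 4716 and 4603, and holding the mitochondrially encoded total equal 181 that rose. Of the 39 genes these settings gave 26 that rose and 7 that fell, 22 and 10, and 0 that rose. No intensity trend gave 5 that rose, and leaving out each library gave 6 to 7 that rose and 17 to 19 that fell. In the further NRF2 list, 11 rose and 5 fell under size factors and 9 and 9 under quantile normalization. In the glutathione list these were 20 and 7, then 16 and 6, with 0 that rose at an equal mitochondrial total and 1 to 3 with each library left out. In the thioredoxin list they were 20 and 6, then 19 and 8, with 0 that rose at an equal mitochondrial total. In the iron list they were 20 and 10, then 17 and 12, with 1 that rose when mitochondrially encoded genes were left out. The gap of 0.82 between the median of the 39 genes and that of all genes became 1.06 with a pseudocount of 0.1, 0.017 with no filter, 0.97 at a mean TPM of at least 5, 1.09 under size factors, 0.25 under quantile normalization, 0.91 without mitochondrially encoded genes and 0.85 to 0.91 with each library left out.

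Log2 ratios of summed TPM turned sign with the mitochondrial total held equal for all 39 genes (-0.41), glutathione (-0.41), the thioredoxin system (-0.39) and iron (-0.16). They did so under size factors for the detoxifying enzymes (0.24), superoxide dismutases and catalase (1.29) and NADPH supply (0.80). Without mitochondrially encoded genes the dismutases and catalase were at 0.089, and glutathione was at -0.017 to 0.111 with each library left out. Single genes turned sign under size factors: MAFG 1.20, MAFK 0.25, GCLM 0.072, GSR 0.73, GPX1 1.02, SLC7A11 0.90, NQO1 0.99, TXN2 1.28, TXNRD1 0.12, PRDX1 1.07, PRDX6 1.19, SOD1 1.25, TFRC 0.10, PGD 0.67, TALDO1 1.31 and TKT 0.40. Under quantile normalization these were MAFG 1.26, MAFK 0.41, GCLM 0.25, GPX1 0.21, SLC7A11 1.05, NQO1 0.70, TXN2 0.60, PRDX6 0.22, SOD1 0.27 and TALDO1 0.39, and the log2 ratios of GPX4 to GPX1 (-0.017), TXN to TXN2 (-0.16), HMOX1 to HMOX2 (0.20) and FTH1 to FTL (-0.13). With the mitochondrial total held equal they were GSS -0.41, GPX4 -0.20, TXN -0.28, TXNRD2 -0.39, PRDX2 -0.21, PRDX3 -0.24, PRDX4 -0.15, SOD2 -0.43, CAT -0.42, FTH1 -0.039, FTL -0.14, ACO1 -0.0101 and ME1 -0.076. Without mitochondrially encoded genes they were MAFG 0.092, TXN2 0.087, SOD1 0.048 and TALDO1 0.11. With each library left out in turn, MAFG was at -0.1426 to 0.0528, TXN2 was at -0.1393 to 0.0240, TXNRD2 was at -0.0031 to 0.1199, GSS was at -0.0086 to 0.0939, SOD2 was at -0.0633 to 0.1255 and CAT was at -0.0582 to 0.1281. The cause of these changes was not tested beyond the scaling itself.

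A replicate block gave 8 of the 39 genes that rose and 19 that fell, since TXN and PRDX6 no longer passed (limma adjusted p = 0.0825 and 0.0784). Deviations of same-numbered libraries correlated at -0.0471 and the labels tie no culture or day to a number, so the numbers were not taken as pairs. SLC40A1, HMOX1, MAFF and ME1 gave no value at a mean TPM of at least 5, and SLC40A1 gave none without vehicle replicate 1, since they did not reach the filter there.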
